A study of Mus musculus with 10 samples.

Results

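The 53 genes described here encode the proteins that copy DNA in S phase: the factors that license and fire replication origins, the helicase and polymerases of the fork, the sliding clamp and its loaders, the histone chaperones behind the fork and the enzymes that make deoxynucleotides, together with Tcf19, a chromatin factor that is often co-expressed with them. They were taken by gene symbol from a list set by function, with no threshold on their values, and all 53 were among the 55809 gene rows of the counts. The list was chosen with earlier results of these data known. All 53 also passed the filter for testing, a mean count of at least 10 over the libraries. The counts are bulk RNA-seq read pairs from Treg cells (spleen and lymph nodes) of mice that all carried Foxp3-AID, in which the auxin-inducible degron (AID) is fused to Foxp3 at its own locus, and that all received 5-ph-IAA, an auxin analog, for 14 days. The control group had genotype Foxp3-AID ROSA26-WT (R26-WT, 4 libraries) and no TIR1. The other group had genotype Foxp3-AID ROSA26-TIR1(F74G) (R26-TIR1(F74G), 6 libraries), in which 5-ph-IAA links the fusion protein to the plant ubiquitin ligase adaptor TIR1(F74G) and the protein is degraded. The labels give no strain or age, and the file headers name the libraries as male. TIR1(F74G) stands behind a stop cassette that the Cre recombinase of the Foxp3-AID allele removes, so that it is made in cells that express or have expressed Foxp3. The study's general gate for Foxp3-AID Treg cells takes CD4+TCRβ+ cells with ZsGreen, the reporter of Foxp3-AID, from R26-WT mice, and also asks for mCherry, the reporter of TIR1(F74G), in R26-TIR1(F74G) mice. With this gate the sort differs together with the genotype.

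Replication is prepared in one stage of the cell cycle and carried out in the next. In G1 the origin recognition complex, Cdc6 and Cdt1 load the MCM2–7 ring onto DNA in an inactive form, and in S phase Cdc45 and GINS join the ring to make the running helicase. Many of the genes are transcribed at the G1 to S boundary under E2F control and are low in resting lymphocytes, while others are also used in DNA repair and are transcribed in cells that do not divide. Foxp3+ Treg cells of lymphoid organs are mostly resting, with an activated part that divides.

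The labelled cell type was checked first. The summed normalized count of 7 Treg markers (Foxp3, Il2ra, Ctla4, Ikzf2, Tnfrsf18, Cd4 and Cd3e) was 134071 to 146272 in R26-WT and 125978 to 139049.6 in R26-TIR1(F74G), and none of the 7 was called. Cd3e and Cd4 had the highest mean levels in this sum. The log2 fold change was −0.42 for Tnfrsf18, −0.31 for Ctla4, −0.29 for Il2ra, −0.16 for Ikzf2, −0.054 for Cd3e and 0.26 for Cd4. Tnfrsf18 (0.027) and Ctla4 (0.020) had an unadjusted DESeq2 p under 0.05. Foxp3 RNA does not check the genotype, since the degron acts on the protein. Foxp3 had 9965, 11779, 6816 and 7158 normalized counts in R26-WT and from 6778 to 16059 with a median of 8082 in R26-TIR1(F74G), with a log2 fold change of 0.074 (SE 0.25). Of the B cell markers, Cd79b had 661 to 1091 normalized counts in R26-WT and 525 to 972 in R26-TIR1(F74G), Cd79a had 171 to 271 and 145 to 233, and Ms4a1 and Pax5 were at or near 0. Summed CD8 and NK markers (6 genes) had 1219 to 1847 in R26-WT and 1125 to 1402 in R26-TIR1(F74G), nearly all from Cd8b1. Myeloid (6 genes, up to 44.4) and erythroid markers (7 genes, up to 38.9) were near 0. Plasma cell markers (5 genes) had 8934 to 10784 in R26-WT and 9055 to 12083 in R26-TIR1(F74G), nearly all from Xbp1, with Mzb1 at 0, and thymocyte markers (5 genes) had 3837 to 4938 in R26-WT and 3638 to 4805 in R26-TIR1(F74G), nearly all from Cd1d1, with Ptcra at 0. No gene of these lists was called, and the part of other cells in the results below was not tested. Depth was between 24158699 and 54795718 counted read pairs a library.

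The libraries differed within the groups, and the differences ran through these genes. Of the 53 genes, 26 were higher in both R26-WT replicates 1 and 2 than in both replicates 3 and 4, and 18 were lower in both. These shares were 49.1% and 33.96%, against 35.4% and 35.3% of all 16363 tested genes. The first set had a median exon length of 5028.5 bases and the second 2439.5 bases, and over all tested genes the lengths were 5485 and 2268.5 bases. In the R26-TIR1(F74G) group, replicate 7 had the highest value for 21 of the 53 genes and the lowest for 12, and replicate 9 the lowest for 23. Among the alternatives, fits without each library and with the gene-length trend of each library removed were planned, and fits with each R26-WT pair alone were added because of this split.

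A part of the replication genes had more transcripts in R26-TIR1(F74G) than in R26-WT, and among the called genes Mcm10, Cdc6, Clspn, Rrm2 and Orc1 had the largest fold changes and Tcf19, Rrm2 and Asf1b the smallest p. DESeq2 called 18 of the 53 (33.96%) as higher and 0 as lower, at an adjusted p under 0.05. At an unadjusted p under 0.05 the numbers were 27 and 0, and over all tested genes 4.17% were higher and 2.68% lower at that level. Of all 16363 tested genes, 1.40% were called higher and 0.336% lower at the adjusted level. The edgeR quasi-likelihood test called 6 of the 53 higher (11.3%), against 0.330% of all tested genes, and these were Mcm5, Cdc45, Dscc1, Asf1b, Rrm2 and Tcf19. limma voom called 8, against 0.422% of all tested genes, and these were Cdc6, Mcm3, Mcm5, Dscc1, Lig1, Asf1b, Rrm2 and Tcf19. All 3 tools called 5, Mcm5, Dscc1, Asf1b, Rrm2 and Tcf19. None of the 53 was called by edgeR or limma voom that DESeq2 had not called. The log2 fold change was positive for 49 of the 53 genes (92.5%), against 50.1% of all tested genes, and its median was 0.32, against 0.00063 over all tested genes. For 14 of the 53 genes (26.4%) all 6 R26-TIR1(F74G) libraries lay above all 4 R26-WT libraries, against 1.57% of all tested genes. In bulk RNA a larger share of cells in S phase cannot be told apart from more RNA per cell.

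**Figure D1:**
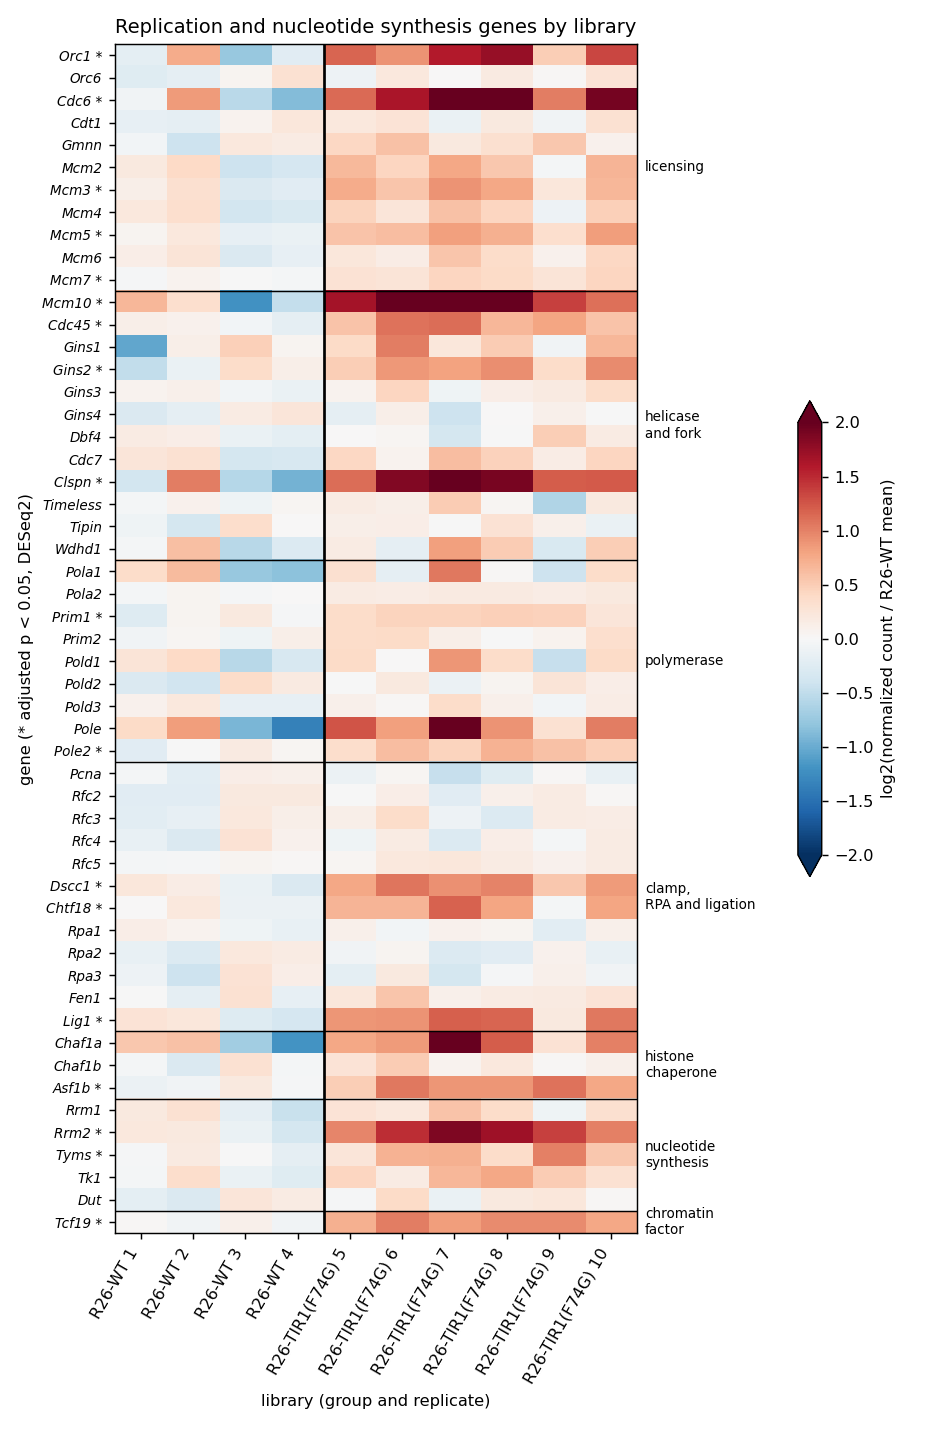
Heat map of the 53 genes (rows, by role) in the 10 libraries (columns), as log2 of the normalized count over the R26-WT mean of the gene. A star marks the 18 genes with a DESeq2 adjusted p under 0.05. The R26-TIR1(F74G) columns are red for Cdc6, Mcm10, Clspn, Rrm2 and Tcf19 and near white for the Rfc2 to Rfc5 and Rpa1 to Rpa3 rows, and the R26-WT columns differ between replicates 1 and 2 and replicates 3 and 4.

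Changes of at least 1 on the log2 scale were reached by 5 of the 18 called genes, Mcm10, Cdc6, Clspn, Rrm2 and Orc1. Of the 18 calls, 11 held in every one of the 10 leave-one-library-out fits, and 7 were lost in at least 1 (Orc1, Mcm3, Mcm7, Gins2, Prim1, Chtf18 and Tyms). With R26-WT replicates 1 and 2 alone DESeq2 called 7 of the 53 genes higher and 134 genes in all, and with replicates 3 and 4 alone 24 and 804. Mcm10, Asf1b, Rrm2 and Tcf19 were called with either pair. Of the genes not called with all libraries, replicates 3 and 4 alone gained Mcm2, Mcm4, Mcm6, Cdc7, Pola1, Pole, Chaf1a, Rrm1 and Tk1, and replicates 1 and 2 alone gained none. All 18 called genes had a positive log2 fold change with either pair, and of the 53 genes 46 did with replicates 1 and 2 and 41 with replicates 3 and 4.

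**Figure D2:**
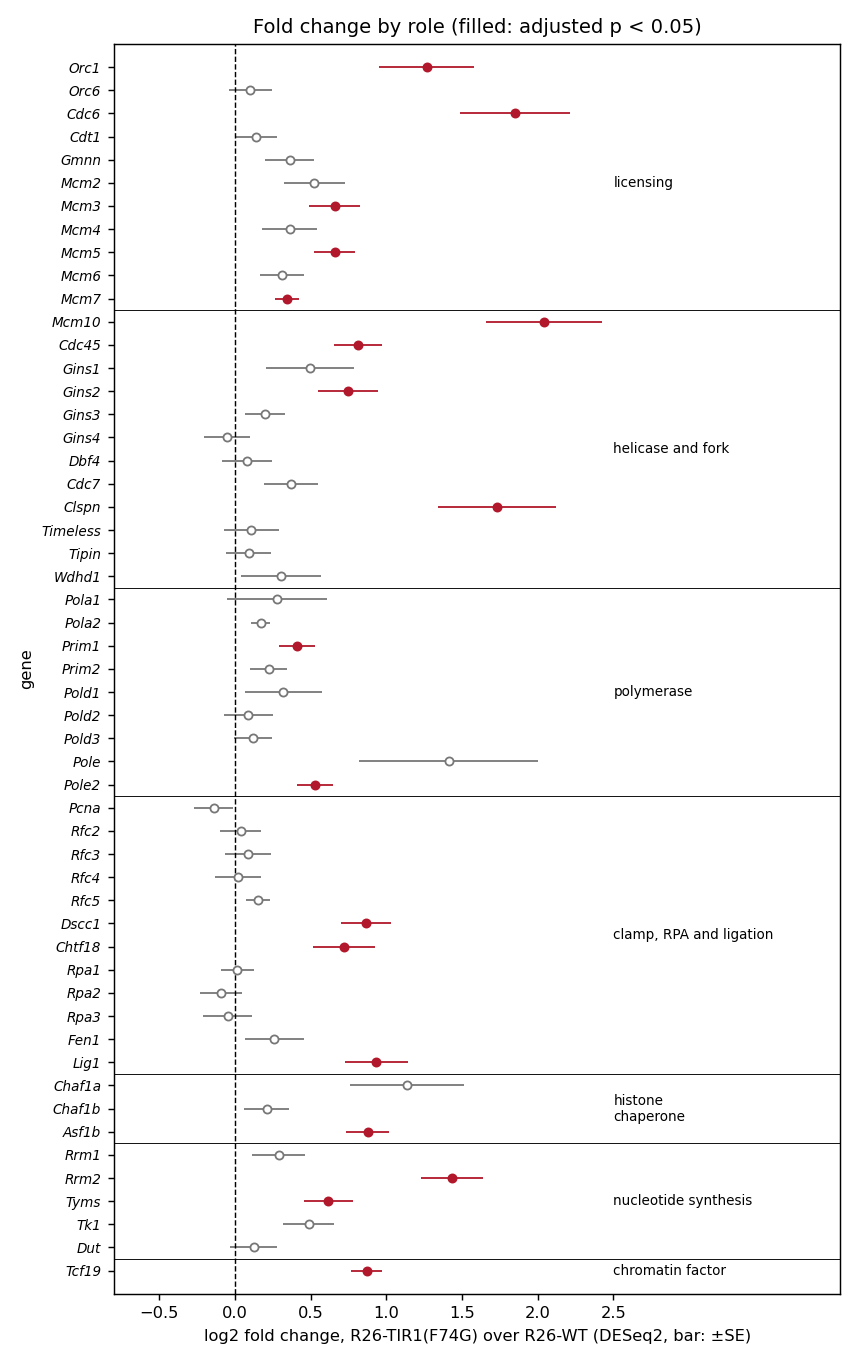
DESeq2 log2 fold change of R26-TIR1(F74G) over R26-WT (x axis, points with bars of 1 SE) for each of the 53 genes (y axis), in 7 role groups. Filled red points are the 18 genes called. They lie between 0.34 (Mcm7) and 2.04 (Mcm10), and the open points of Pole and Chaf1a lie above 1 with wide bars.

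Promoters were examined because E2F control is known for many genes of this kind. RefSeq promoters (GRCm38.p6, from 250 bases before to 50 after the annotated start) were matched by symbol for 43 of the 53 genes. Gins1, Gins2, Gins4, Prim2, Gmnn, Rfc2, Mcm4, Dscc1, Tipin and Pole were not matched. At least 1 of the E2F words TTTCCCGC, TTTCGCGC, TTTGCCGC and TTTGGCGC, searched on both strands, stood in 15 of the 43 promoters (34.9%) and in 704 of 27025 promoters of all genes (2.605%). Overlapping words were found in Mcm5 and Mcm6. A word was found for 8 of the 16 called genes with a promoter and for 7 of the 27 not called. The CCAAT box (CCAAT, both strands) stood in 25 of 43 (58.1%, all genes 41.1%) and the CHR word TTTGAA, known from mitotic promoters, in 8 of 43 (18.6%, all genes 20.2%). A matched word is a description and not a bound site. Such words were found in 4 of the role groups, and the promoters shown are those of the gene with the smallest p among the genes with a word in each, on the strand of the gene and with the E2F word in capitals. In Cdc6 (chr11:98907901-98908200, plus strand) the word begins 138 bases before the start, in Clspn (chr4:126556730-126557029, plus strand) 21 bases after it, in Pole2 (chr12:69228141-69228440, minus strand) 10 bases after it and in Lig1 (chr7:13278576-13278875, plus strand) 26 bases after it. In all 4 the word reads on the opposite strand, so that its reverse complement is in capitals.
Cdc6: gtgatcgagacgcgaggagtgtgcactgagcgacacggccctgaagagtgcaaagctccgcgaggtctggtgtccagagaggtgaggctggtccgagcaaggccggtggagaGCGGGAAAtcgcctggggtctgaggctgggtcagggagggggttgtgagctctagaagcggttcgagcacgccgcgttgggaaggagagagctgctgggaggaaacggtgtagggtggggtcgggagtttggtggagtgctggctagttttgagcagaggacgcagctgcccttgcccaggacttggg
Clspn: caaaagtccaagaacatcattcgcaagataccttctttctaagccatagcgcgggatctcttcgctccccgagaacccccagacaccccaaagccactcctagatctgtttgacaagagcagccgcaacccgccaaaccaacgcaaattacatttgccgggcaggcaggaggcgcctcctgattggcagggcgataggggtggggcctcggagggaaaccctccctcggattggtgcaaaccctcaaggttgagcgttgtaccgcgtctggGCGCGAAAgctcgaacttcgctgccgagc
Pole2: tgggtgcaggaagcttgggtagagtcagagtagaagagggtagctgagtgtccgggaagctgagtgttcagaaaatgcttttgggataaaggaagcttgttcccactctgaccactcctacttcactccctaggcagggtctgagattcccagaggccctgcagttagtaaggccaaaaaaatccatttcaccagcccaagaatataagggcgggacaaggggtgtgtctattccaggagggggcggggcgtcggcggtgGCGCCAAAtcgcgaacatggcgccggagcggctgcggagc
Lig1: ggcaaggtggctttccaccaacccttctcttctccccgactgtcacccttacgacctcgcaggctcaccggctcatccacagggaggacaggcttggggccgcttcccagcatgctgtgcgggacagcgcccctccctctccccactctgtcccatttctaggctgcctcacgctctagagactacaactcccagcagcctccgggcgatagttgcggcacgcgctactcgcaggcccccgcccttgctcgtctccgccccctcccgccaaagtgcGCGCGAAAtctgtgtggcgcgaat

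Among the 11 licensing genes, 5 were called higher (Cdc6, Orc1, Mcm3, Mcm5 and Mcm7), none lower, and all 11 had a positive log2 fold change with a median of 0.36. Cdc6 (chromosome 11, 98798627 to 98814766, plus strand, GRCm39) is the ATPase that recruits Cdt1 and the MCM ring to the origin, and its promoter is the first printed above. Its normalized counts, which are counts divided by the size factor of the library, were 100.3, 189, 72.4 and 57.5 in R26-WT replicates 1 to 4, and from 214 to 669 with a median of 358 in R26-TIR1(F74G). The groups did not overlap, R26-WT replicate 2 came nearest to the other group, and replicate 7 was the highest library. The log2 fold change of Cdc6 was 1.85 (SE 0.36), with an adjusted p of 8.71e-05 by DESeq2 and 0.0862 by edgeR. With R26-WT replicates 1 and 2 alone it was 1.39 and Cdc6 was not called (DESeq2 adjusted p 0.0756). Orc1, the subunit of the origin recognition complex whose level follows the cell cycle, had 56.5, 108, 38.3 and 55.0 in R26-WT and values from 90.8 to 216 with a median of 154 in R26-TIR1(F74G), with one R26-TIR1(F74G) library (replicate 9) below R26-WT replicate 2. Its log2 fold change was 1.27 (SE 0.31), with a DESeq2 adjusted p of 0.00481 that rose to 0.0532 without R26-WT replicate 3 and 0.0515 without replicate 4. Orc6, the smallest subunit, had the largest p of the licensing genes. Its counts were 878, 925, 1084 and 1285 in R26-WT and from 977 to 1254 with a median of 1120.0 in R26-TIR1(F74G), with a log2 fold change of 0.10 (SE 0.14) that was −0.084 with R26-WT replicates 3 and 4 alone. Cdt1, the loader of the ring, and Gmnn, the inhibitor that holds Cdt1 back after S phase begins, were not called, at 0.14 (SE 0.14) and 0.36 (SE 0.16).

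The 6 subunits of the MCM2–7 ring all had positive log2 fold changes, from 0.31 (Mcm6) to 0.66 (Mcm3 and Mcm5), and 3 were called. Mcm5 had 3000.3, 3358, 2591 and 2629.9 normalized counts in R26-WT and from 3650.1 to 5164 with a median of 4602 in R26-TIR1(F74G). Every R26-TIR1(F74G) library was above every R26-WT library, with a log2 fold change of 0.66 (SE 0.13), and the adjusted p was 0.000176 by DESeq2 and 0.0430 by edgeR. Mcm7 was the steadiest subunit, with 3398, 3597, 3422 and 3339 in R26-WT and from 4106 to 4631 with a median of 4352 in R26-TIR1(F74G), again without overlap. The log2 fold change of Mcm7 was 0.34 (SE 0.080), with a DESeq2 adjusted p of 0.00201 and an edgeR adjusted p of 0.130, and without R26-WT replicate 4 the DESeq2 value was 0.0503. Mcm3 had 3329, 3819, 2521 and 2616 in R26-WT and from 3582 to 5744 with a median of 5006 in R26-TIR1(F74G), where replicate 9 lay below R26-WT replicate 2. For Mcm3 the log2 fold change was 0.66 (SE 0.17), and the adjusted p was 0.00804 by DESeq2 and 0.114 by edgeR. It was not called without R26-WT replicate 3 (0.0827) or replicate 4 (0.0959). Mcm2 at 0.52 (SE 0.20), Mcm4 at 0.36 (SE 0.18) and Mcm6 at 0.31 (SE 0.15) were not called, and in each of them R26-WT replicates 1 and 2 lay above replicates 3 and 4. Each was called with R26-WT replicates 3 and 4 alone, and none with replicates 1 and 2 alone. Mcm2 was called without R26-WT replicate 2 (0.0388), without R26-TIR1(F74G) replicate 9 (0.0494) and with the length trend removed (0.0130). Scaled to exon length and to the total counts of the library (RPKM), the subunits differed in level. In R26-WT Mcm6 had 41.5 ± 6.95 (SD, n = 4) and Mcm4 37.7 ± 8.94, and Mcm3, Mcm7, Mcm5 and Mcm2 had 18.7 ± 3.62, 17.8 ± 0.437, 16.6 ± 1.94 and 15.0 ± 4.004. Neighbours in this order differed by less than the larger SD, except Mcm4 and Mcm3.

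Of the 12 helicase and fork genes, 4 were called higher (Mcm10, Clspn, Cdc45 and Gins2), none lower, and 11 had a positive log2 fold change with a median of 0.34. Mcm10 (chromosome 2, 4994525 to 5017602, minus strand, GRCm39), which helps to activate the helicase, had the largest fold change of the 53 genes. Its normalized counts were 89.2, 70.8, 24.4 and 40.6 in R26-WT and from 121 to 382 with a median of 213 in R26-TIR1(F74G), and the groups did not overlap. For Mcm10 the log2 fold change was 2.04 (SE 0.38), and the adjusted p was 3.20e-05 by DESeq2 and 0.0683 by edgeR. R26-WT replicates 1 and 2 were the higher R26-WT pair for Mcm10, and its log2 fold change ran from 1.53 to 2.83 across the fits. Cdc45, which completes the helicase together with GINS, had 332, 327, 296 and 269.8 in R26-WT and from 454 to 662 with a median of 505 in R26-TIR1(F74G), without overlap. Its log2 fold change was 0.82 (SE 0.16), called by DESeq2 (6.49e-05) and edgeR (0.0430) but not by limma voom (0.0600). Clspn, the fork and checkpoint mediator whose promoter is the second printed above, had 36.6, 96.4, 31.7 and 24.5 in R26-WT and from 103 to 268 with a median of 140.4 in R26-TIR1(F74G). The lowest R26-TIR1(F74G) library was just above R26-WT replicate 2, which stood apart from the other R26-WT libraries. The log2 fold change of Clspn was 1.73 (SE 0.39), and the adjusted p was 0.00137 by DESeq2 and 0.129 by edgeR. Across the fits it ran from 1.24 to 2.47, and Clspn was not called with R26-WT replicates 1 and 2 alone.

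Of the 4 GINS subunits Gins2 was called, and differences between the subunits were not tested. For Gins2 the log2 fold change was 0.75 (SE 0.20), and the adjusted p was 0.0135 by DESeq2 and 0.194 by edgeR. Other annotated genes cover 67.3% of its exon bases. Its counts were 118, 153, 216 and 180.1 in R26-WT and from 215 to 320.3 with a median of 297 in R26-TIR1(F74G), where replicate 9 lay just below R26-WT replicate 3. The adjusted p was over the threshold without R26-WT replicate 1 (0.104) or 2 (0.0611), or without R26-TIR1(F74G) replicate 6 (0.0531), 8 (0.0588) or 10 (0.0633). Gins1 (0.50, SE 0.29) and Gins3 (0.20, SE 0.13) were not called, and the log2 fold change of Gins1 ran from 0.21 to 0.85 across the fits. Gins4 had 2338, 2527, 3202 and 3388 in R26-WT and from 2142 to 3109 with a median of 2863 in R26-TIR1(F74G), with overlapping groups and a log2 fold change of −0.052 (SE 0.15). The sign for Gins4 was positive without R26-WT replicate 3 (0.0073), R26-WT replicate 4 (0.041) or R26-TIR1(F74G) replicate 7 (0.012), and 0.19 with R26-WT replicates 1 and 2 alone. The origin-firing kinase Cdc7 (0.37, SE 0.18) and its activator Dbf4 (0.079, SE 0.17), the fork protection pair Timeless (0.11, SE 0.18) and Tipin (0.092, SE 0.15), and Wdhd1 (0.30, SE 0.26), which ties the helicase to polymerase alpha, were not called. The log2 fold change was −0.017 for Dbf4 without R26-TIR1(F74G) replicate 9 and −0.0099 for Tipin without R26-WT replicate 2.

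**Figure D3:**
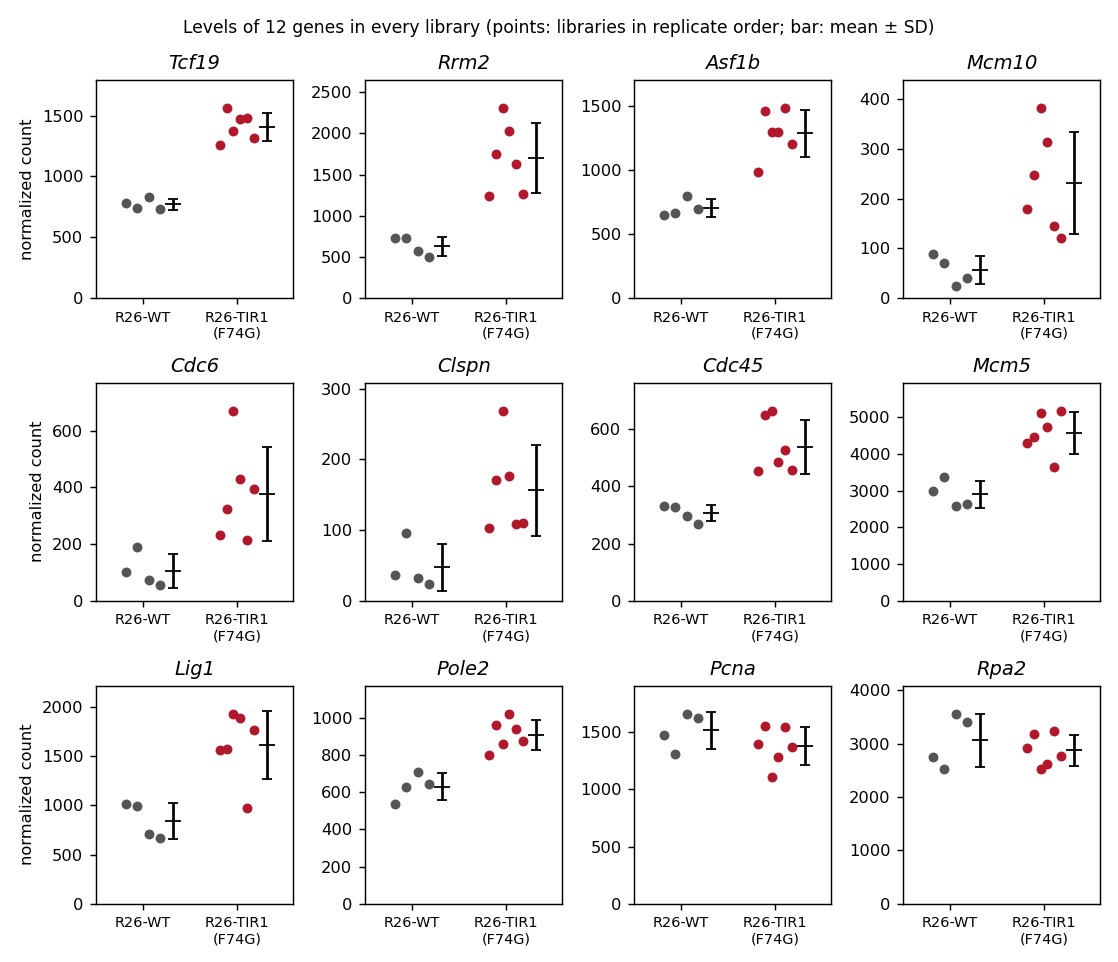
Normalized counts (y axes from 0) of 12 genes in each library, with R26-WT in grey and R26-TIR1(F74G) in red, and the mean with SD beside the points. Tcf19, Rrm2, Asf1b, Mcm10, Cdc6, Clspn, Cdc45, Mcm5 and Pole2 have no overlap between the groups, 1 red point of Lig1 lies among the grey ones, and the ranges of Pcna and Rpa2 overlap in part.

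The 9 polymerase genes all had a positive log2 fold change, with a median of 0.28, and Pole2 and Prim1 were called higher. Pole2 (chromosome 12, 69248547 to 69274969, minus strand, GRCm39), the second subunit of the leading strand polymerase epsilon and the third promoter printed above, had 535, 626, 711 and 644 in R26-WT and from 799 to 1021 with a median of 906 in R26-TIR1(F74G). There was no overlap, and the log2 fold change of Pole2 was 0.53 (SE 0.12), and the adjusted p was 0.00152 by DESeq2 and 0.111 by edgeR. Prim1, the catalytic subunit of primase, had 592, 734, 813 and 698 in R26-WT and from 843 to 991 with a median of 966 in R26-TIR1(F74G), also without overlap, and a log2 fold change of 0.41 (SE 0.12). Its DESeq2 adjusted p of 0.0294 passed the threshold in 2 of the 10 leave-one-library-out fits, those that lacked R26-WT replicate 3 or R26-TIR1(F74G) replicate 10. In the other 8 it was between 0.0545 (without R26-WT replicate 2) and 0.179 (without R26-WT replicate 4), and edgeR gave 0.245. Pole, the catalytic subunit of polymerase epsilon, had the largest log2 fold change of the polymerase genes and the largest SE. Its counts were 174, 239, 71.6 and 52.4 in R26-WT and from 165 to 898 with a median of 261 in R26-TIR1(F74G), and the log2 fold change of 1.41 (SE 0.59) was not called (DESeq2 adjusted p 0.396). Replicate 7 stood alone at the top of its group, and with the length trend removed the gene was called (0.0166). Pold2, a small subunit of the lagging strand polymerase delta and the polymerase gene with the largest p, had 2413, 2268, 3778 and 3319.9 in R26-WT and from 2712 to 3507 with a median of 3151 in R26-TIR1(F74G), with overlapping groups. Its log2 fold change of 0.090 (SE 0.16) was −0.016 without R26-WT replicate 2. Pola2, a subunit of polymerase alpha, had no overlap between groups that both had a narrow range, 2792, 2965, 2821 and 2893 against values from 3176 to 3275 with a median of 3227, and its log2 fold change of 0.17 (SE 0.062) was not called (DESeq2 adjusted p 0.215). Pola1 (0.28, SE 0.33), Prim2 (0.22, SE 0.12), Pold1 (0.32, SE 0.25) and Pold3 (0.12, SE 0.13) were not called either.

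The 12 genes for the clamp, single-strand binding and ligation were called in some roles and not in others. The DNA ligase Lig1 and the alternative clamp loader subunits Dscc1 and Chtf18 were called higher, and the clamp Pcna, the shared loader subunits Rfc2 to Rfc5, the single-strand binding subunits Rpa1 to Rpa3 and the flap nuclease Fen1 were not called. The median log2 fold change of the 12 was 0.063. Dscc1 (chromosome 15, 54939495 to 54953887, minus strand, GRCm39), which with Chtf18 replaces the largest subunit of the clamp loader in a complex used for cohesion between sister chromatids, had 156, 148, 121 and 109 in R26-WT and from 195 to 280.4 with a median of 246 in R26-TIR1(F74G). There was no overlap, and the log2 fold change of Dscc1 was 0.87 (SE 0.16), and the adjusted p was 4.18e-05 by DESeq2 and 0.0430 by edgeR. Lig1, which seals Okazaki fragments and whose promoter is the last printed above, had 1017, 989.8, 706 and 669 in R26-WT and from 971 to 1930.4 with a median of 1672 in R26-TIR1(F74G). Replicate 9 was the lowest R26-TIR1(F74G) library and lay within the R26-WT range, and the log2 fold change was 0.93 (SE 0.21), and the adjusted p was 0.00102 by DESeq2 and 0.0862 by edgeR. Chtf18 had 334, 383, 305 and 308 in R26-WT and from 324 to 754 with a median of 553 in R26-TIR1(F74G), again with replicate 9 within the R26-WT range. Its log2 fold change was 0.72 (SE 0.20), and the adjusted p was 0.0279 by DESeq2 and 0.211 by edgeR. The call held in 2 of the 10 leave-one-library-out fits, those without R26-WT replicate 2 or R26-TIR1(F74G) replicate 9. In the other 8 it was between 0.0575 (without R26-TIR1(F74G) replicate 6) and 0.173 (without R26-WT replicate 4).

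Pcna, the sliding clamp, had the lowest log2 fold change of the 53 genes. Its counts were 1478, 1307, 1658 and 1623 in R26-WT and from 1106 to 1551 with a median of 1386 in R26-TIR1(F74G), and the groups overlapped. The log2 fold change of Pcna was −0.14 (SE 0.13), and it was negative in every fit made. Other genes cover 20.8% of its exon bases. Rpa2 had 2748, 2521, 3553 and 3411 in R26-WT and from 2518 to 3236 with a median of 2839 in R26-TIR1(F74G), with overlap and a log2 fold change of −0.091 (SE 0.14). Rpa3 had 1321, 1072, 1740.0 and 1559 in R26-WT and from 1117 to 1634 with a median of 1375 in R26-TIR1(F74G), at −0.048 (SE 0.16), and Rpa1 was at 0.017 (SE 0.11). In both Rpa2 and Rpa3 the R26-WT replicates 3 and 4 were the higher pair, and with replicates 1 and 2 alone the values were 0.13 and 0.21. For Rpa3 the sign was also positive without R26-WT replicate 3 (0.064) or R26-TIR1(F74G) replicate 7 (0.0056). Rfc4, with the largest p of this role, had 868, 792, 1173 and 1027 in R26-WT and from 803 to 1087 with a median of 999 in R26-TIR1(F74G), at 0.022 (SE 0.15), and it was negative in 5 of the 10 leave-one-library-out fits, between −0.00079 and −0.061 (without R26-TIR1(F74G) replicate 6, 8 or 10, or R26-WT replicate 1 or 2). Rfc2 (0.038, SE 0.14), Rfc3 (0.087, SE 0.15) and Rfc5 (0.15, SE 0.081) also lay near 0. With the length trend removed Rfc2 was at −0.057 and Rpa1 at −0.055. Rfc2 was also negative without R26-WT replicate 1 (−0.032) or 2 (−0.028), and Rpa1 without R26-WT replicate 3 (−0.0096), R26-WT replicate 4 (−0.027) or R26-TIR1(F74G) replicate 5 (−0.00073). Fen1 was at 0.26 (SE 0.20), and 84.2% of its exon bases are covered by other genes, whose shared pairs were left out of the counts.

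The 3 histone chaperone genes had positive log2 fold changes, and Asf1b was called. Asf1b (chromosome 8, 84682136 to 84696826, plus strand, GRCm39), the ASF1 form known from dividing cells, hands new histones to chromatin assembly factor 1, of which Chaf1a and Chaf1b are subunits. Its counts were 644, 663, 799 and 692 in R26-WT and from 979.9 to 1481 with a median of 1294 in R26-TIR1(F74G). No library of one group fell in the range of the other, and the log2 fold change of Asf1b was 0.88 (SE 0.14), and the adjusted p was 3.29e-07 by DESeq2 and 0.0189 by edgeR. Chaf1a had 242, 249.9, 103 and 72.7 in R26-WT and from 203 to 689 with a median of 318 in R26-TIR1(F74G), a wide range with the R26-WT pairs far apart. Its log2 fold change of 1.13 (SE 0.38) was not called (DESeq2 adjusted p 0.111). It was called without R26-WT replicate 2 (0.0286), without R26-TIR1(F74G) replicate 9 (0.0487) and with the length trend removed (0.0110), and other genes cover 52.5% of its exon bases. Chaf1b had 1607, 1353, 2053 and 1615 in R26-WT and from 1687 to 2368 with a median of 1852 in R26-TIR1(F74G), with overlap, at 0.21 (SE 0.15).

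All 5 nucleotide synthesis genes had positive log2 fold changes, with a median of 0.49, and Rrm2 and Tyms were called. Rrm2 (chromosome 12, 24758240 to 24764145, plus strand, GRCm39) encodes the subunit of ribonucleotide reductase that is made in S phase. Its counts were 727, 724, 573 and 492 in R26-WT and from 1237 to 2307 with a median of 1686 in R26-TIR1(F74G). The lowest R26-TIR1(F74G) library was well above the highest R26-WT library, and the log2 fold change of Rrm2 was 1.43 (SE 0.21), and the adjusted p was 3.39e-09 by DESeq2 and 0.0114 by edgeR. Of its 50-base stretches, 34.5% also occur in other annotated transcripts, so that part of its reads may not have been counted. Tyms, which makes thymidylate, had 691, 802, 704 and 625 in R26-WT and from 838 to 1422 with a median of 1080.0 in R26-TIR1(F74G), without overlap, and a log2 fold change of 0.62 (SE 0.16). Its DESeq2 adjusted p of 0.0121 rose to 0.0791, 0.0620 and 0.121 without R26-WT replicates 1, 3 and 4, and edgeR gave 0.156. Rrm1, the large reductase subunit (0.29, SE 0.18), and Tk1, the salvage thymidine kinase (0.49, SE 0.17), were not called, though Tk1 was without R26-WT replicate 2 (0.0114). Dut, which removes dUTP, had 1998, 1867, 2703 and 2539 in R26-WT and from 2067 to 2981 with a median of 2455 in R26-TIR1(F74G), with overlap, at 0.12 (SE 0.15), and −0.083 with R26-WT replicates 3 and 4 alone.

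Tcf19 (chromosome 17, 35823631 to 35827721, minus strand, GRCm39) had the smallest adjusted p of the 53 genes. It encodes a PHD finger protein that binds modified histone H3 and is induced at the G1 to S boundary. Its normalized counts were 782, 737, 828 and 734 in R26-WT and from 1258 to 1561 with a median of 1422 in R26-TIR1(F74G). Both groups had a narrow range with a wide gap between them, and Tcf19 did not follow the split of the R26-WT pairs. The log2 fold change of Tcf19 was 0.87 (SE 0.10), with an adjusted p of 3.68e-14 by DESeq2, 0.00671 by edgeR and 0.0110 by limma voom. It was called in every fit made, and its log2 fold change was under the fold minimum of 1 that was tried as an alternative.

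Genes whose products work in one complex, or which stand in for each other, were set side by side within each library. The 15 ratios were chosen after the values had been seen and are given without a test. Groups did not overlap in 5. The log2 ratio of Rrm2 to Rrm1, the partner in the same enzyme, was between −2.12 and −1.92 in the R26-WT libraries and between −1.32 and −0.55 in the R26-TIR1(F74G) libraries, with a difference of 1.11 between the means. Rrm2b, the form of Rrm2 used for repair in resting cells, was not called (0.13, SE 0.18), and the log2 ratio of Rrm2 to Rrm2b differed by 1.28 between the groups. For Asf1b against Asf1a, the ASF1 form that resting cells also make (−0.077, SE 0.18), the log2 ratio was −1.35 ± 0.21 (SD, n = 4) for R26-WT and −0.40 ± 0.25 (SD, n = 6) for R26-TIR1(F74G). The log2 ratio of Dscc1 to the mean of Rfc2 to Rfc5 differed by 0.79, and that of Pole2 to its small partners Pole3 and Pole4 by 0.66. Orc1 against the mean of Orc2 to Orc6 differed by 1.28, with R26-WT replicate 2 within the R26-TIR1(F74G) range. The groups also overlapped for Chaf1a to Chaf1b (1.003), Lig1 to Fen1 (0.66), Chtf18 to the mean of Rfc2 to Rfc5 (0.61), Prim1 to Prim2 (0.20), Timeless to Tipin (−0.036), Pola1 to Pola2 (0.17), Pold1 to Pold2 (0.20), Cdc7 to Dbf4 (0.32) and Cdt1 to its inhibitor Gmnn (−0.23). R26-WT replicates 1 and 2 lay above the R26-WT mean and replicates 3 and 4 below it for Dscc1 to Rfc2 to Rfc5 and Asf1b to Asf1a, whose groups did not overlap, and for Pola1 to Pola2, Pold1 to Pold2, Chaf1a to Chaf1b, Chtf18 to Rfc2 to Rfc5, Lig1 to Fen1 and Cdc7 to Dbf4, whose groups did.

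**Figure D4:**
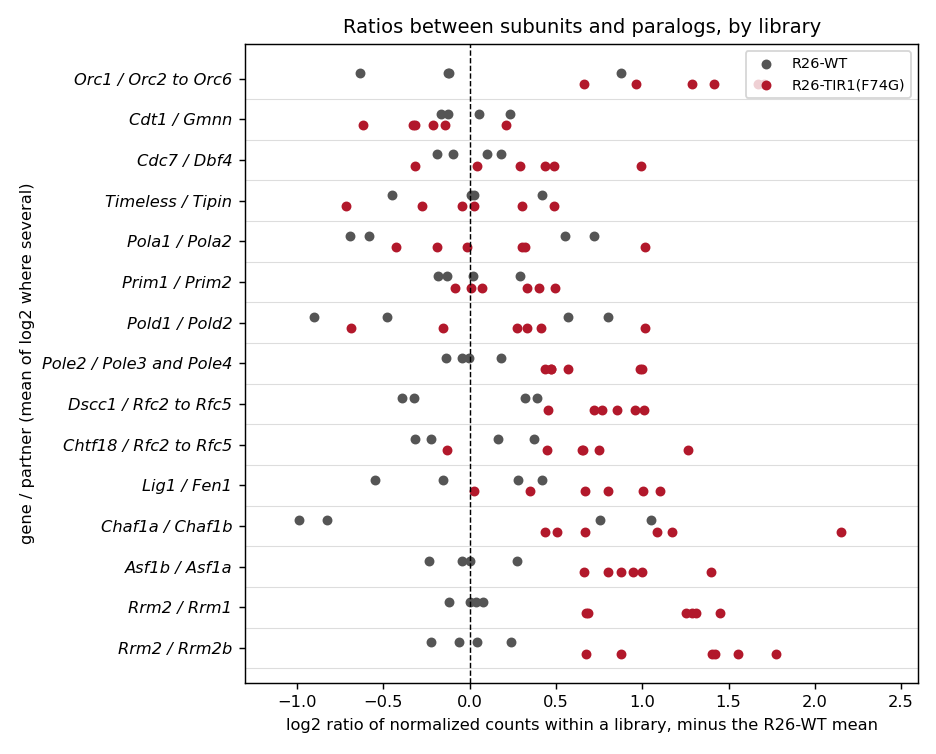
Log2 ratio of normalized counts within each library, minus the R26-WT mean (x axis), for 15 pairs of a gene and its partner or partners (y axis), with R26-WT in grey and R26-TIR1(F74G) in red. The red points of Rrm2 to Rrm1, Rrm2 to Rrm2b, Asf1b to Asf1a, Dscc1 to Rfc2 to Rfc5 and Pole2 to Pole3 and Pole4 all lie to the right of the grey ones.

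Replication genes outside the 53 were counted from lists chosen for their function. Of 13 partner subunits of the same complexes (among them Orc2 to Orc5, Rfc1, Pold4, Pole3, Pole4, Rbbp4, Asf1a and Rrm2b) DESeq2 called 0 in either direction, edgeR 0, and 0 had an unadjusted p under 0.05. Their median log2 fold change was −0.054, with a range from −0.12 to 0.14, and the largest p belonged to Chtf8 (−0.016, SE 0.30), a further subunit of the Dscc1 and Chtf18 complex. Of 19 other firing and fork factors, 2 were called higher and 0 lower by DESeq2, with a median of 0.12. These were Uhrf1, which guides maintenance DNA methylation behind the fork, and the nuclease and helicase Dna2. Uhrf1 had 489, 676, 363 and 396 in R26-WT and from 802 to 1726 with a median of 1009 in R26-TIR1(F74G), and its log2 fold change was 1.20 (SE 0.24), and the adjusted p was 8.94e-05 by DESeq2 and 0.0570 by edgeR. For Dna2 the log2 fold change was 0.91 (SE 0.25), and the adjusted p was 0.0246 by DESeq2 and 0.219 by edgeR. The DESeq2 value for Dna2 was between 0.0631 and 0.191 without R26-WT replicate 3 or 4 or without R26-TIR1(F74G) replicate 5, 7 or 10. Neither had overlap between the groups. The largest p in that list belonged to Mcm9 (−0.0069, SE 0.21), a relative of the MCM ring that acts in repair. Of 19 other nucleotide supply genes DESeq2 and edgeR called 0, while 4 had an unadjusted p under 0.05 by DESeq2 (6.86% of all tested genes had, in either direction), and the median was 0.065. Dctpp1 had the largest p there (0.0066, SE 0.18).

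Of 18 mitosis genes, 14 were called higher and 0 lower by DESeq2, 3 of them by edgeR (Cdk1, Aurkb and Birc5), with a median log2 fold change of 1.52. The called genes were Mki67, Top2a, Ccna2, Ccnb2, Cdk1, Bub1, Bub1b, Aurka, Aurkb, Plk1, Cenpe, Cenpf, Tpx2 and Birc5, between 0.70 (Aurka) and 1.85 (Bub1), and the largest p belonged to Kif20a (0.55, SE 0.25). The median of the 53 replication genes was 0.32. Cdk1, the kinase that drives entry into mitosis, had 99.5, 142, 119 and 79.5 in R26-WT and from 214 to 347 with a median of 299 in R26-TIR1(F74G) (1.39, SE 0.21). It was among 9 of the 18 mitosis genes with all R26-TIR1(F74G) libraries above all R26-WT libraries, against 1.57% of all tested genes.

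**Figure D5:**
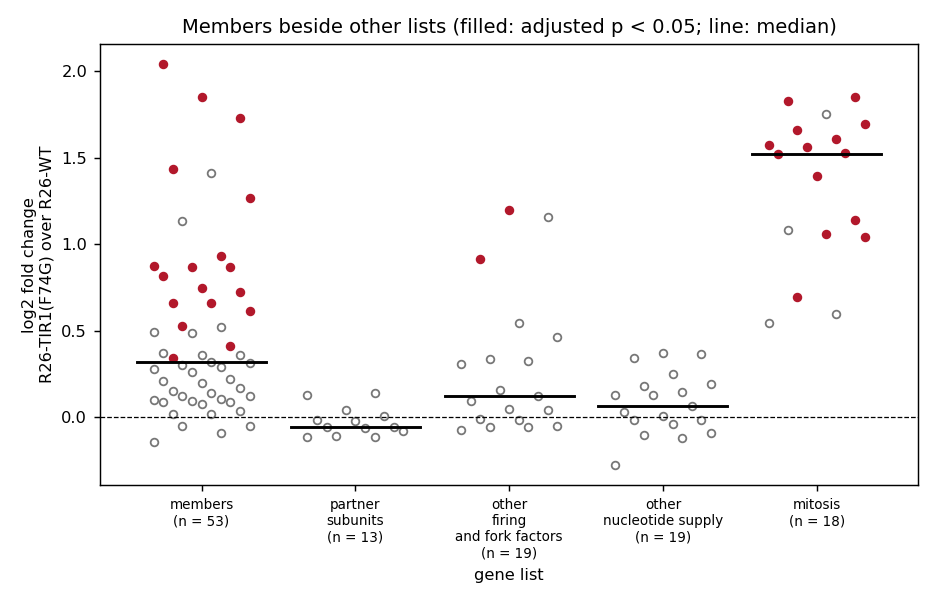
DESeq2 log2 fold change (y axis) of the 53 replication and nucleotide synthesis genes and of the 4 other lists (x axis), 1 point a gene, filled where called and with the median as a line. Called points number 18 of 53, 0 of 13, 2 of 19, 0 of 19 and 14 of 18 from left to right.

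Calls were counted by level. Split at the middle of the mean RPKM over all 10 libraries (8.56), 12 of the 26 lower genes and 6 of the 27 higher genes were called, given as a description without a test. In R26-WT the lowest levels belonged to Clspn (0.150 ± 0.104 RPKM, SD, n = 4), Mcm10 (0.167 ± 0.0864) and Pole (0.275 ± 0.178), whose order lay within their spread. In R26-TIR1(F74G) they were at 0.502 ± 0.1999, 0.694 ± 0.303 and 0.737 ± 0.546 (SD, n = 6). The highest levels in R26-WT belonged to Gins4 (48.6 ± 8.87), Mcm6 (41.5 ± 6.95) and Mcm4 (37.7 ± 8.94), followed by Rpa1 (36.5 ± 3.25) and Pold2 (35.6 ± 8.91). Neighbours in this order differed by less than the larger SD. Rrm2 was at 5.19 ± 0.933 RPKM in R26-WT and 14.2 ± 3.44 in R26-TIR1(F74G), and Rrm1 at 5.26 ± 1.20 and 6.50 ± 0.921.

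Summed over the 53 genes, the normalized count was 90551 ± 4858 (SD, n = 4) for R26-WT and 110639 ± 7579.9 (SD, n = 6) for R26-TIR1(F74G). This was 0.198% to 0.218% of all counts in the R26-WT libraries and 0.227% to 0.273% in the R26-TIR1(F74G) libraries. The highest R26-WT library (replicate 2, 96492) and the lowest R26-TIR1(F74G) library (replicate 9, 97614) lay close together. In this sum abundant genes count for more than rare ones. The median over the genes of the log2 level against the R26-WT mean ran from −0.13 to 0.093 in R26-WT and from 0.16 to 0.50 in R26-TIR1(F74G).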

How the data were processed

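Per the labels, bulk RNA-seq libraries were made by the authors from 1–2 ng of RNA with SMART-Seq v4 amplification. Per the file headers the deposited values are raw read-pair counts per gene name, made by the authors with featureCounts 2.1.1 on GENCODE M30 (mouse GRCm39) from primary pairs with a mapping quality of at least 30. No strand option was set, so that reads of opposite-strand genes cannot be told apart and pairs over 2 genes were left out. The labels list Bowtie2 among the tools, and the methods name STAR for bulk RNA-seq. No molecular identifiers were used, so that counting error is a lower limit. The labels do not say whether libraries came from separate mice, and p-values measure the spread between these libraries.

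DESeq2 1.42.0 (R 4.3.3) was fitted to 16363 genes (mean count 10 or more), with genotype as the only term (two-sided Wald test, Benjamini-Hochberg adjusted p under 0.05 over all genes, "called"). edgeR 4.0.16 (quasi-likelihood) and limma 3.58.1 (voom with quality weights), TMM and upper-quartile factors, no filter, a mean count of at least 50, counts thinned to 24158699, gene-length trends removed per library, a minimum absolute log2 fold change of 1, and fits without each library were alternatives. Fits with R26-WT replicates 1 and 2 or 3 and 4 alone were added after the data were seen. The DESeq2 fit with its default size factors, edgeR and limma voom were tested on simulated data, and the other alternatives were not. In the 21 pairs of libraries within groups the chi-square per degree of freedom lay between 9.45 and 215, so that no library was taken as deposited more than once.

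The 53 genes and the other lists were set by function, but they and the tests were chosen with earlier results of these data known. Values per library are given for the 2 smallest and the largest DESeq2 p in each role group, for Tcf19, for negative fold changes, for up to 6 genes on which DESeq2 and edgeR differ, and, chosen after their values were seen, for Orc1, Mcm3, Gins2, Chtf18, Pole, Pola2, Uhrf1 and Cdk1. Of the other lists, called genes and the largest p are named. A further B cell marker is not reported here.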

Additional observations from a re-analysis of the deposited data

Results flagged for a closer look

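Of 118 groups of values examined, 4 held a library that stood apart from the others of its group, and chance gives about 1 in 20, or 5.9. Clspn had 96.4 normalized counts in R26-WT replicate 2 and 24.5 to 36.6 in the other R26-WT libraries, a gap of 0.832 of the range. Without that library the log2 fold change of Clspn was 2.34, against 1.73 with it. Pole had 898 in R26-TIR1(F74G) replicate 7 and 165 to 320.3 in the others of its group, a gap of 0.789, and its log2 fold change was 0.89 without that library and 1.41 with it. In the same library Uhrf1 had 1726 against 802 to 1119.6 (gap 0.657), and its log2 fold change was 1.03 without the library and 1.20 with it. Fen1 had 95.5 in R26-TIR1(F74G) replicate 6 against 69.4 to 78.1 (gap 0.667), with a log2 fold change of 0.19 without the library and 0.26 with it. The causes were not tested.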

How the results depend on the processing

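The count of genes called depended on the test and on the R26-WT libraries. Against 284 of all genes and 18 of the 53, edgeR called 61 and 6, limma voom 80 and 8, and the fold minimum of 1 on the log2 scale left 156 and 5 by construction. Outside the 53, calls among other replication genes were 2 by DESeq2, 0 by edgeR, 1 by limma voom, 1 at equal depth and 1 with the fold minimum. With R26-WT replicates 1 and 2 alone there were 134 calls over all genes, 7 of the 53 and 0 of the other replication genes, and with replicates 3 and 4 alone 804, 24 and 5. The cause was not tested. TMM factors, upper-quartile factors, no filter, the filter of 50, equal depth and removal of the length trend gave between 17 and 19 calls of the 53. With the length trend removed Mcm2, Pole and Chaf1a were gained and Prim1 (adjusted p 0.0978 by DESeq2) and Tyms (0.0926) lost, and with upper-quartile factors Prim1 was lost (0.106).

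In the 10 fits without a library, calls ranged from 187 (without R26-WT replicate 4) to 346 over all genes, from 12 to 19 of the 53, and from 1 to 3 of the other replication genes, with 0 of the 53 and 0 of the others called lower in each. The median log2 fold change of the 53 ranged from 0.26 to 0.43 (without R26-WT replicate 2), and the difference of the summed level on the log2 scale, 0.29, from 0.26 to 0.33. Signs turned for genes that were not called. Leaving out a library moved Gins4 from −0.14 to 0.041, Dbf4 from −0.017 to 0.15, Tipin from −0.0099 to 0.23, Pold2 from −0.016 to 0.23, Rfc2 from −0.032 to 0.11, Rfc4 from −0.061 to 0.13, Rpa1 from −0.027 to 0.065 and Rpa3 from −0.16 to 0.064. With the length trend removed Rfc2 was at −0.057 and Rpa1 at −0.055. With R26-WT replicates 1 and 2 alone the sign turned for Gins4 at 0.19, Rpa2 at 0.13, Rpa3 at 0.21, Dbf4 at −0.067, Wdhd1 at −0.0097, Pola1 at −0.22, Pold1 at −0.012, Pold3 at −0.024 and Rpa1 at −0.087, and with replicates 3 and 4 alone for Orc6 at −0.084, Cdt1 at −0.015, Tipin at −0.10, Pold2 at −0.18, Rfc2 at −0.16, Rfc3 at −0.083, Rfc4 at −0.17 and Dut at −0.083. No paired analysis was possible because R26-WT libraries are numbered 1 to 4 and R26-TIR1(F74G) libraries 5 to 10.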
